A study of Mus musculus with 34 samples.

Results

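The colony stimulating factor receptors and ligands are the 7 genes Csf1r, Csf1, Il34, Csf2ra, Csf2rb, Csf2rb2 and Csf3r, out of 21631 protein-coding genes on chromosomes 1 to 19 and X. They were chosen by name, and all 7 were found in the gene annotation. For each gene the length of DNA under called histone mark peaks was measured in kb per library, within 2.5 kb of either gene end (the gene ends) and over the gene body with 20 kb flanks (the locus). Exon and enhancer positions were not used here, so places within a gene are given as distances.

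Colony stimulating factors are secreted proteins that keep cells of the myeloid lineage alive and make them divide and mature. Csf1r is a receptor tyrosine kinase that microglia, the resident macrophages of the brain, need for survival, and its ligands are Csf1 and interleukin 34 (Il34), the second of which is made mainly by neurons in the forebrain. Csf2ra is the ligand-binding chain of the receptor for granulocyte-macrophage colony stimulating factor, Csf2rb is the signalling chain it shares with the interleukin 3 and 5 receptors, Csf2rb2 is a close copy of that chain found in mice that serves interleukin 3, and Csf3r is the receptor for granulocyte colony stimulating factor. In macrophages the transcription of Csf1r depends on its promoter and on enhancer DNA within the gene. Of the marks, H3K4me3 lies at active promoters, H3K9ac and H3K27ac at active promoters and enhancers, and H3K9me3 in silent chromatin.

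Histone marks were mapped by ULI-NChIP-seq, which pulls down native chromatin from small numbers of cells, in microglia of the mouse hippocampus. FGR animals, named for the growth restriction in the uterus that the series is about, were set against control animals (Ctrl), with 4 libraries per mark and group. All animals of both groups are labelled with the genotype Tmem119-tdTomato+/-, a fluorescent reporter of microglia, and the age given is 3 weeks for replicates 1 to 3, while the labels of replicate 4 give none. Peak names in the replicate 4 lists of H3K4me3 and H3K9me3 carry the number 5 in both groups, so whether replicate 4 belongs with the others is uncertain. The labels say neither how growth was restricted nor whether replicates are separate animals or pools, so every p-value measures only the spread between these libraries, which may be technical.

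Several properties of the lists separate the groups as wholes. Lists held 43175 to 49045 peaks in FGR and 16598 to 18391 in Ctrl for H3K4me3, 54853 to 87128 in FGR and 42220 to 47729 in Ctrl for H3K9ac, and 53492 to 78143 in FGR and 45988 to 50116 in Ctrl for H3K27ac. The lowest local background solved from the peaks, a stand-in for depth in reads, was 0.523 to 1.16 in FGR and 2.35 to 3.58 in Ctrl over these 3 marks, and the smallest peak, which follows the fragment length given to the caller, was 148 to 151 bp in FGR and 267 to 284 bp in Ctrl for H3K4me3 and H3K27ac. Depth and group therefore cannot be told apart, and read depth itself is unknown. Across genes, FGR H3K4me3 coverage was more like Ctrl H3K9ac (mean r = 0.908 over 16 pairs of libraries) than like Ctrl H3K4me3 (mean r = 0.822). FGR H3K9ac was less like Ctrl H3K9ac (0.757) than FGR H3K4me3 or FGR H3K27ac (0.896) were, which bears on each H3K9ac comparison, and all values stand under the deposited labels. Of 15 homeostatic microglia genes, 15 had a peak at the gene ends in at least 1 FGR library for H3K4me3 and H3K27ac. Of 12 neuron genes 11 in FGR and 12 in Ctrl had no H3K27ac peak there. For the other marks fewer neuron genes lacked a peak in FGR, 5 against 10 in Ctrl for H3K4me3 and 2 against 9 for H3K9ac.

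In the covered lengths as deposited, H3K4me3 covered more DNA of these genes in FGR, H3K27ac covered less, and H3K9ac at the gene ends covered less except at Il34 and Csf2ra; many of the H3K4me3 and H3K27ac directions turned after quantile normalization, as given below gene by gene. At the gene ends 6 members could be tested for H3K4me3, since Il34 had no peak there in any library, and all 6 were covered more in FGR, but 95.5% of all genes tested were called in that direction and 0% in the other. Quantile normalization between libraries removes a shift common to all genes and moved the median of all genes to -0.0946 kb. After it 1 of the 6 (Csf2ra) was higher and 2 (Csf1r and Csf3r) were lower. At the loci 7 of 7 were higher, beside 97% of all genes higher and 0.018% lower, and only Csf2ra remained called after quantile normalization. The median difference was 1.16 kb for the members and 0.887 kb for all genes at the gene ends, and 2.18 kb and 1.88 kb at the loci. For H3K27ac all 6 tested members were covered less in FGR in both windows, beside 81.6% of all genes lower and 0.185% higher at the gene ends, and 83.4% lower and 0.0458% higher at the loci. After quantile normalization only the locus of Csf1r was still called lower, while Csf3r in both windows, the ends of Csf1r and Csf2ra and the locus of Csf2rb kept negative differences that were not called. For H3K9ac at the gene ends 5 of 7 members were lower and 1 was higher, where 30% of all genes were lower and 28.5% higher. At the loci 3 were lower and 1 was higher, beside 27.3% lower and 33.8% higher among all genes. In bulk samples of this kind, fewer cells that carry a mark and less of the mark per cell cannot be told apart.

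**Figure D1:**
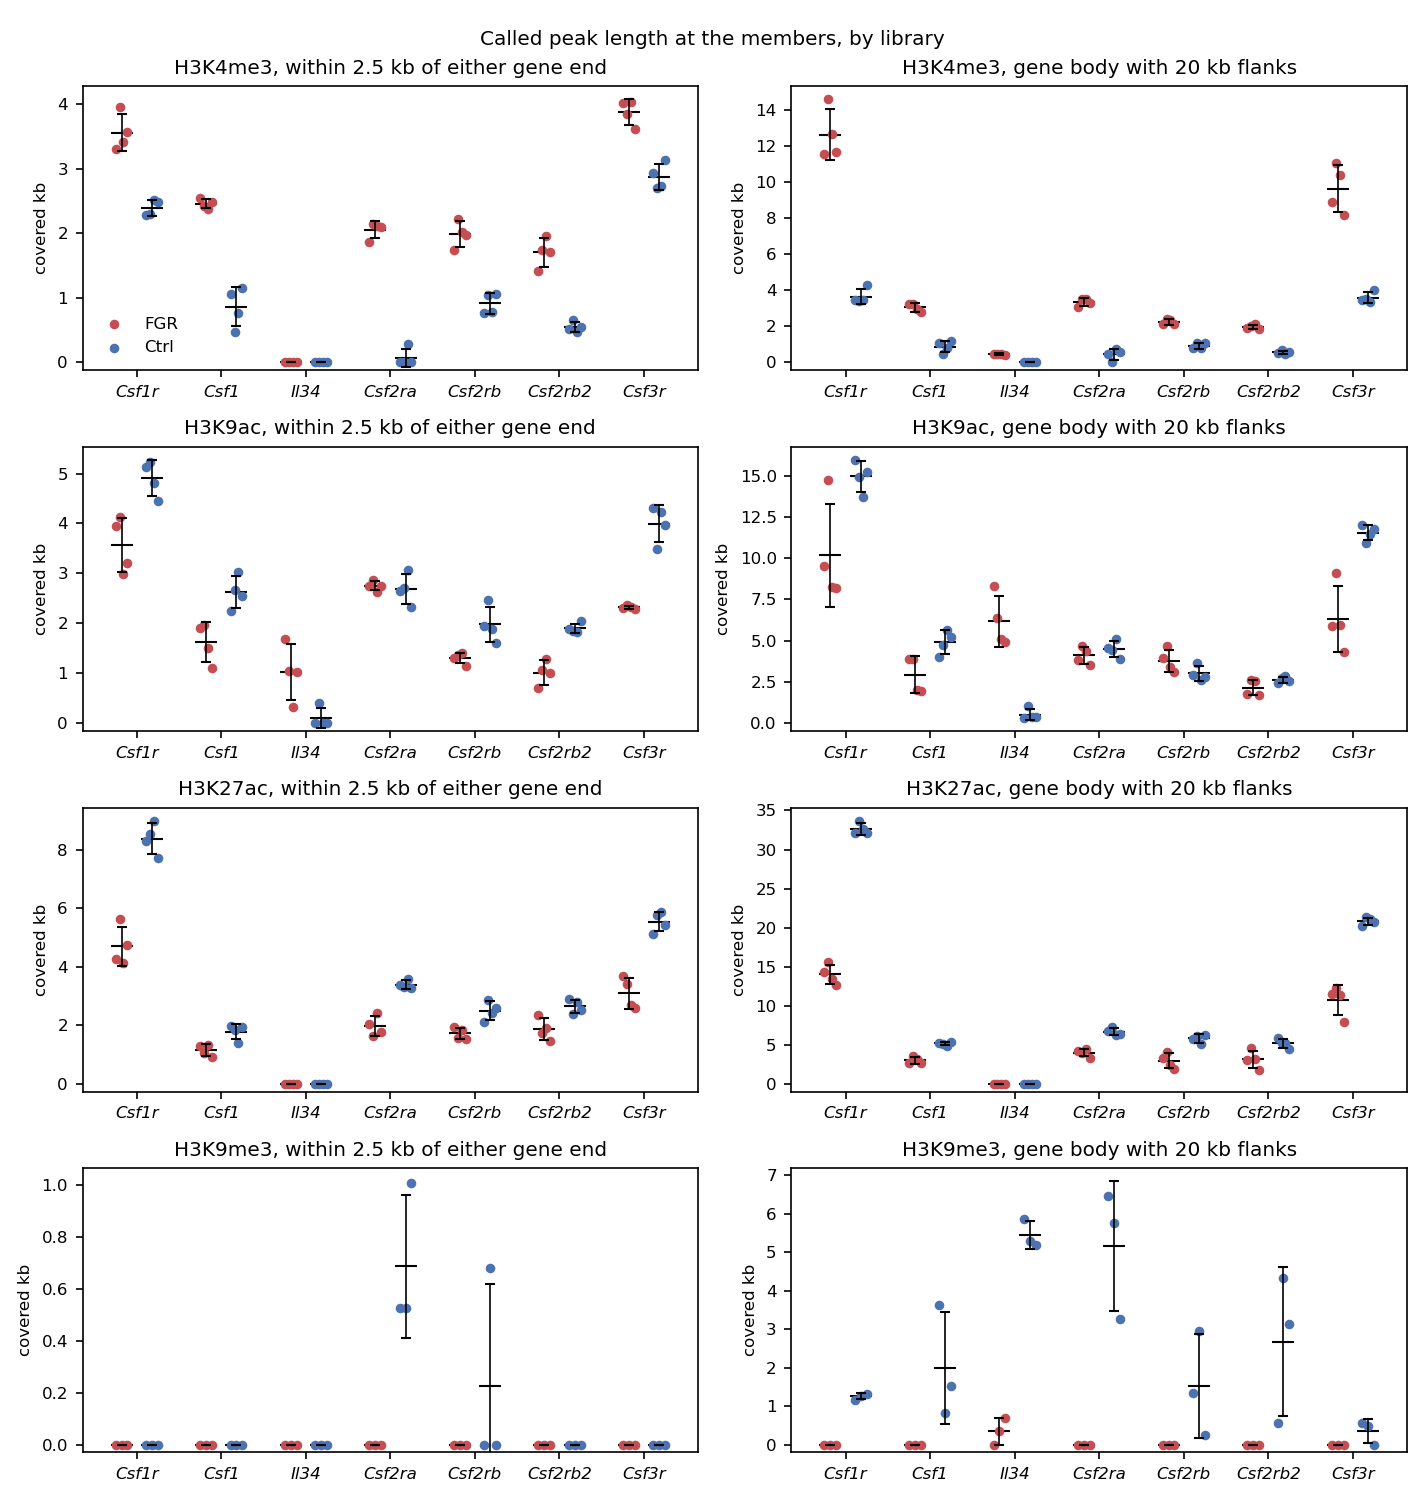
Kb of DNA under called peaks at each gene for 4 marks (rows), within 2.5 kb of either gene end (left) and over the gene body with 20 kb flanks (right); each point is 1 library, lines are means and bars are SD (n = 4 per group, n = 3 for H3K9me3). FGR libraries lie above Ctrl libraries for H3K4me3 at every gene with a peak. For H3K27ac they lie below Ctrl libraries at every gene with a peak except over the Csf2rb2 locus. Over all genes tested 95.5% (gene ends) and 97% (loci) were called higher for H3K4me3. For H3K27ac 81.6% and 83.4% were called lower. The share of all genes whose groups lie apart was not counted, here or in the gene paragraphs. After quantile normalization H3K4me3 turns to lower at the ends of Csf1r, Csf2rb and Csf3r and the loci of Csf2rb, Csf3r and Il34. The Il34 locus had 0 kb in every Ctrl library, so its turn comes from the value that the normalization gives to 0. H3K27ac turns to higher at Csf1, Csf2rb2, the ends of Csf2rb and the locus of Csf2ra.

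Csf1r (gene ID 12978, mm10 chromosome 18, 61105572 to 61131139) spans 25.6 kb, and its lower-coordinate end is its start. A long noncoding RNA gene (Gm52352) and a microRNA gene (Mir6983) lie inside it. The lower-coordinate end of Hmgxb3 lies 138 bp beyond the far end of Csf1r, so peaks at that end are shared with Hmgxb3. The strand of Hmgxb3 is not given in the annotation used, so whether this is its start is not known here. H3K4me3 over the locus covered 11.5, 14.6, 12.7 and 11.7 kb in FGR libraries 1 to 4, against 3.44, 3.401, 3.445 and 4.275 kb in Ctrl libraries 1 to 4. The groups did not overlap, and the difference was 8.996 ± 0.638 kb (SE; limma adjusted p = 2.38e-06), larger than at 98.1% of the genes tested. At the gene ends the values were 3.304, 3.96, 3.41 and 3.57 kb in FGR and 2.28, 2.296, 2.51 and 2.48 kb in Ctrl, a difference of 1.17 ± 0.143 kb (adjusted p = 6.17e-05). Most of the added length thus lay away from the start. Inside the gene, beyond 2.5 kb from either end, H3K4me3 covered 6.73 to 8.93 kb in FGR and 0.619 to 1.22 kb in Ctrl. Under quantile normalization the gene-end difference turned to -0.81 kb (adjusted p = 0.00448) and the locus difference was 1.25 kb (adjusted p = 0.0942).

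The H3K4me3 peaks of Csf1r formed 2 regions that every library of both groups had, from -565 to 3003 bp and from 3229 to 7384 bp relative to the start. The second of these held 3.86 to 4.15 kb in FGR and 0.34 to 1.22 kb in Ctrl. A further 4 regions had a peak in each FGR library and in no Ctrl library. They lay from -2054 to -1178 bp, from 13327 to 14409 bp, from 14884 to 16370 bp and from 16657 to 17374 bp. The last 3 overlap Gm52352, whose annotation starts 13489 bp after the start of Csf1r, and all 3 lie within the H3K27ac region from -2111 to 18407 bp that all 8 libraries share.

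**Figure D2:**
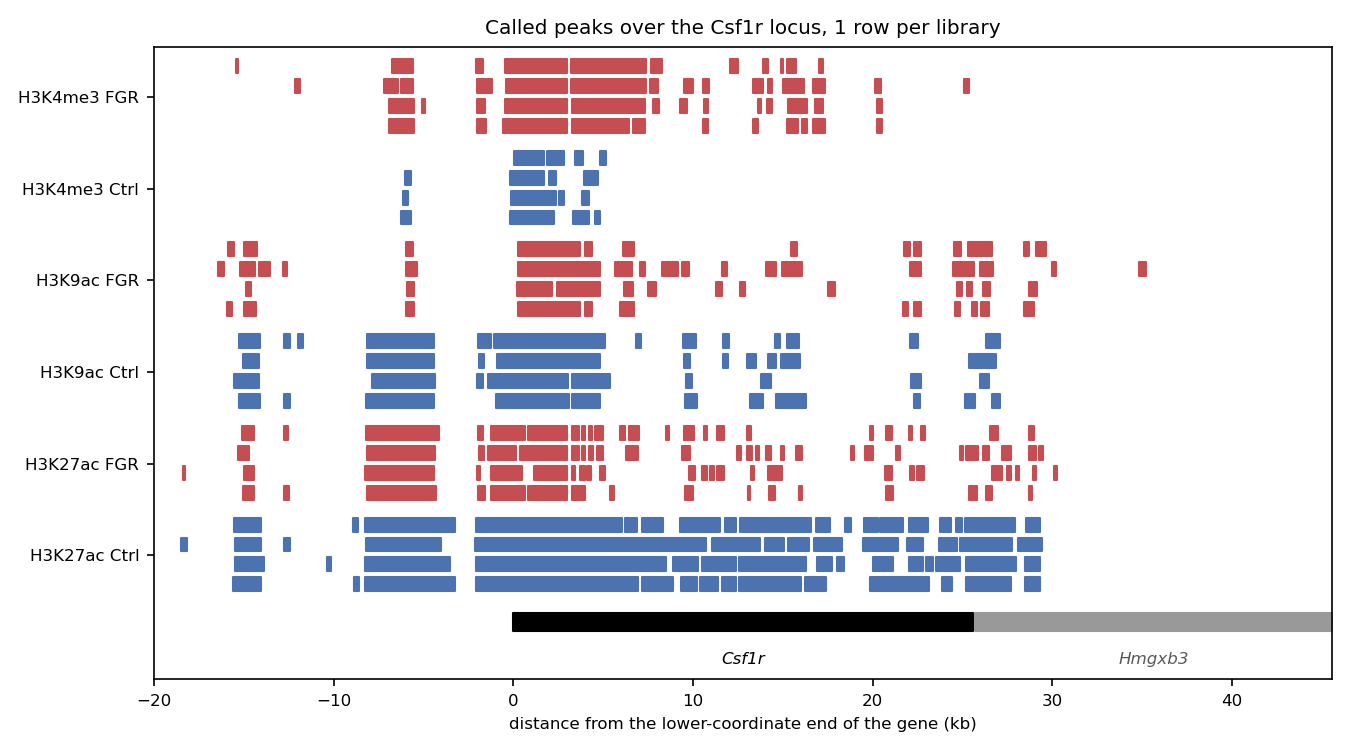
Called peaks over Csf1r and 20 kb on either side, as bars at their distance in kb from the start of the gene, with 1 row per library (replicates 1 to 4 from top to bottom in each block) for H3K4me3, H3K9ac and H3K27ac in FGR (red) and Ctrl (blue). The Ctrl H3K27ac rows are nearly filled from -2.11 kb to 18.4 kb, where the FGR rows hold shorter, separate peaks; the H3K4me3 rows hold more peaks in FGR, where H3K4me3 at the gene ends turns to lower after quantile normalization.

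H3K27ac over the Csf1r locus covered 14.4, 15.6, 13.5 and 12.6 kb in FGR, against 32.1, 33.7, 32.6 and 32.1 kb in Ctrl. Each FGR library was below every Ctrl library, with 21.4% of the locus covered in FGR and 49.7% in Ctrl. The difference was -18.6 ± 0.645 kb (SE; limma adjusted p = 1.42e-06), and Csf1r ranked 21 by p among 15293 genes. It was also the only member locus still called after quantile normalization, with -5.64 kb (SE 0.465 kb, adjusted p = 0.000382). The loss was spread unevenly along the gene. Near the start, within 2.5 kb, H3K27ac covered 3.24 to 3.998 kb in FGR and 4.55 to 4.61 kb in Ctrl, while inside the gene it covered 2.96 to 4.92 kb in FGR and 16.2 to 17.5 kb in Ctrl. Around the far end, shared with Hmgxb3, the values were 0.43 to 1.63 kb in FGR and 3.13 to 4.44 kb in Ctrl. No H3K27ac region of the locus was called in each library of 1 group and none of the other.

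The shorter coverage came with more and narrower peaks. H3K27ac lists held 16 to 26 peaks in the Csf1r locus in FGR with a median width of 244 to 381 bp, against 14 to 18 peaks of 911.5 to 1392 bp in Ctrl. Median widths over all H3K27ac peaks of a list were 314 to 365 bp in FGR and 825 to 919 bp in Ctrl, so peaks were narrower in FGR over the whole genome. The part of peak width and depth in the Csf1r result was not tested. The strongest H3K27ac peak of the locus had its summit between -5941 and -5900 bp from the start in 3 FGR libraries, at -6567 bp in FGR library 3, and between -5918 and -5851 bp in Ctrl. By the authors' −log10 p it stood within the top 0.247 to 0.519% of the FGR lists and the top 0.657 to 1.94% of the Ctrl lists. This upstream region, from -8265 to -3216 bp, was called in all 8 libraries.

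**Figure D3:**
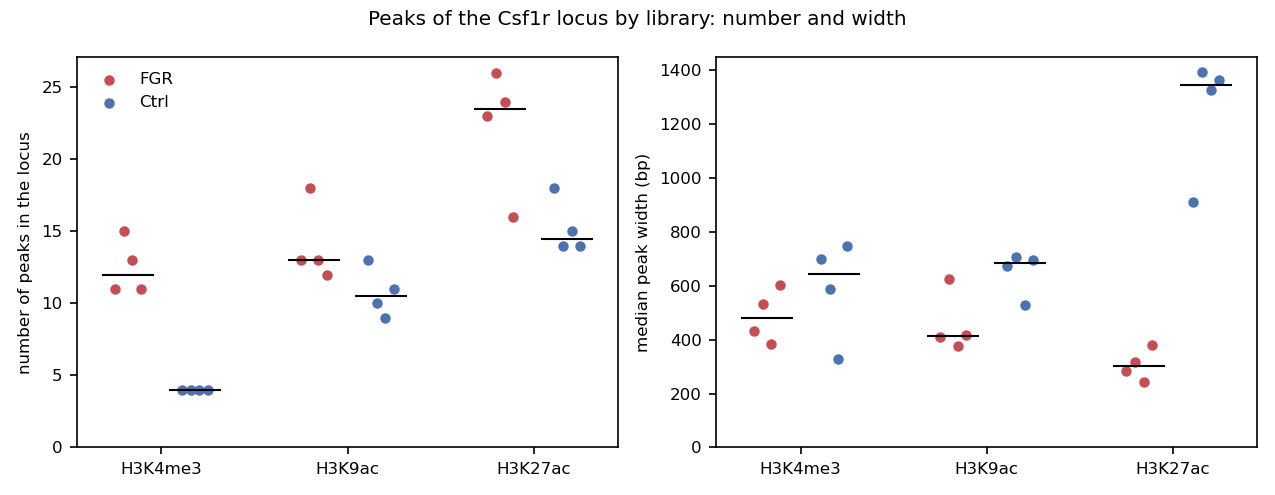
Number of peaks (left) and their median width in bp (right) in the Csf1r locus for 3 marks; each point is 1 library and lines are medians of 4 libraries in FGR (red) and Ctrl (blue). H3K27ac widths are 244 to 381 bp in FGR and 911.5 to 1392 bp in Ctrl.

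H3K9ac at the ends of Csf1r covered 3.95, 4.12, 2.99 and 3.22 kb in FGR and 5.14, 5.24, 4.81 and 4.45 kb in Ctrl, without overlap. The difference was -1.34 ± 0.282 kb (SE; adjusted p = 0.00342). Over the locus the values were 9.503, 14.8, 8.26 and 8.21 kb in FGR and 15.98, 14.9, 13.7 and 15.3 kb in Ctrl. FGR library 2 lay within the Ctrl range, and the difference of -4.78 ± 1.45 kb (adjusted p = 0.0224) rested on few libraries. It lost its call without FGR library 1 (adjusted p = 0.0552), FGR library 3 (0.0584), Ctrl library 1 (0.0591) or Ctrl library 4 (0.0535), without replicate 4 of both groups (0.0965), and with 5 kb flanks (0.136). The upstream flank, more than 2.5 kb from the start, held 0.615 to 2.64 kb in FGR and 4.66 to 5.54 kb in Ctrl. An H3K9ac region inside the gene, from 5656 to 6738 bp after the start, had a peak in all 4 FGR libraries and in no Ctrl library.

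Csf1 (gene ID 12977, chromosome 3, 107741048 to 107760469, minus strand) encodes the macrophage colony stimulating factor, and all of its H3K4me3 at the gene ends lay at its start. H3K4me3 there covered 2.54, 2.43, 2.38 and 2.49 kb in FGR, against 1.06, 0.476, 0.770 and 1.16 kb in Ctrl, and the groups did not overlap. The difference was 1.60 ± 0.144 kb (SE; adjusted p = 1.13e-05), and 0.43 kb (adjusted p = 0.0842) after quantile normalization. An upstream region, which begins 17169 bp before the start, had H3K4me3 peaks in each FGR library, of 0.274 to 0.804 kb, and in no Ctrl library. H3K27ac covered 1.305, 1.04, 1.32 and 0.921 kb at the gene ends in FGR and 1.97, 1.82, 1.40 and 1.94 kb in Ctrl, a difference of -0.64 ± 0.155 kb (adjusted p = 0.00388). Its direction turned after quantile normalization, to 0.18 kb (adjusted p = 0.391).

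For H3K9ac, Csf1 had 1.90, 1.97, 1.51 and 1.11 kb at the gene ends in FGR and 2.25, 2.66, 3.03 and 2.55 kb in Ctrl. Every FGR library was below every Ctrl library (difference -0.998 ± 0.226 kb, adjusted p = 0.00493). Over the locus coverage was 3.90, 3.88, 1.99 and 1.91 kb in FGR and 3.99, 4.73, 5.65 and 5.25 kb in Ctrl. That call (adjusted p = 0.0225) was lost without FGR library 3 (0.0565), Ctrl library 3 (0.0612) or Ctrl library 4 (0.0584), without replicate 4 of both groups (0.101), and with 5 kb flanks (0.178). A region beyond the far end of Csf1, from -12863 to -11635 bp relative to its lower-coordinate end, had H3K9ac in each Ctrl library and in no FGR library. The sequence of the Csf1 promoter, shown because H3K4me3 peaks covered 288 to 300 of its 300 bases in FGR and 0 to 166 in Ctrl while H3K27ac covered it fully in all 8 libraries, is that of RefSeq on GRCm38.p6, chr3:107760420-107760719, minus strand, with matches to the GC box in capitals.
Csf1: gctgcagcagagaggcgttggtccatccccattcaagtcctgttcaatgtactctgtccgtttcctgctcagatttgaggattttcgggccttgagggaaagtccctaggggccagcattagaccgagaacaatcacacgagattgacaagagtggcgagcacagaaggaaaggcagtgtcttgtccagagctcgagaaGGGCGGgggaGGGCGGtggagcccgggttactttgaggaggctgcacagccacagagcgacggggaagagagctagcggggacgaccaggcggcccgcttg

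Il34 (gene ID 76527, chromosome 8, 110741829 to 110805949) had the opposite H3K9ac pattern to Csf1r and Csf1. The other ligand of Csf1r had no H3K27ac peak in the locus in any library, and its only H3K4me3 lay at the far edge of the flank, at the start of the neighbouring gene Mtss2. H3K9ac over the locus covered 8.32, 6.35, 5.08 and 4.94 kb in FGR, against 0.293, 1.04, 0.345 and 0.376 kb in Ctrl. The groups were far apart, with a difference of 5.66 ± 0.724 kb (SE; adjusted p = 0.000505). Of this length, 2.70 to 5.05 kb in FGR and 0.293 to 0.376 kb in Ctrl lay in the flank that holds Mtss2, which ends at -428 bp from the lower-coordinate end of Il34. Within the body of Il34 itself, away from the ends, FGR had 0.928 to 2.07 kb and Ctrl had 0. Regions from 169 to 951 bp and from 12621 to 14109 bp after that end, the second overlapping the noncoding RNA gene Gm15894, were called in all 4 FGR libraries and in no Ctrl library. They and 2 regions in Mtss2 make up the 4 FGR-only H3K9ac regions of the locus, of which 0 were left with lists of equal length. The locus difference was then 2.12 kb (adjusted p = 0.0217), and with 5 kb flanks it was 2.67 kb (0.00067).

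At the ends of Il34 H3K9ac covered 1.69, 1.05, 0.317 and 1.02 kb in FGR and 0, 0.410, 0 and 0 kb in Ctrl. Nearly all of the FGR length, 0.317 to 1.432 kb, lay at the lower-coordinate end beside Mtss2, where Ctrl had 0 kb. At the upper end FGR library 1 had 0.254 kb, Ctrl library 2 had 0.41 kb and the others had 0. The strand of Il34 is not given in the annotation used, so neither end is named as its start. FGR library 3 was below Ctrl library 2, and the call (difference 0.92 ± 0.258 kb, adjusted p = 0.0142) was lost after quantile normalization (0.0611) and without replicate 4 of both groups (0.0661). With lists of equal length Il34 no longer had enough peaks at its ends to be tested, while the locus was still called. Neuron marker genes moved in the same direction as Il34. The 12 neuron genes together had 6.14 to 8.59 kb of H3K9ac at their gene ends in FGR and 0.325 to 0.709 kb in Ctrl. Of these genes 9 had no peak there in any Ctrl library, so they could not be called lower. Of 7 tested 5 were called higher and none lower, where 28.5% of all genes were higher and 30% lower. Rbfox3, a nuclear protein of neurons, had 2.19 ± 0.360 kb in FGR and 0.195 ± 0.227 kb in Ctrl (SD, n = 4 each), and Snap25 and Gad1 were at 0 in all libraries. Oligodendrocyte lineage genes had 8.33 to 14.1 kb of H3K9ac in FGR and 3.28 to 5.61 kb in Ctrl over 10 genes, with 6 of 9 tested called higher. Of the astrocyte list 4 of 8 tested were higher and 1 lower, and of the endothelial and mural list 4 of 9 were higher and 1 lower. Genes without a Ctrl peak numbered 4 of 10 oligodendrocyte, 4 of 9 astrocyte and 3 of 10 endothelial and mural genes. The part of these cell types in the Il34 result was not tested.

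**Figure D4:**
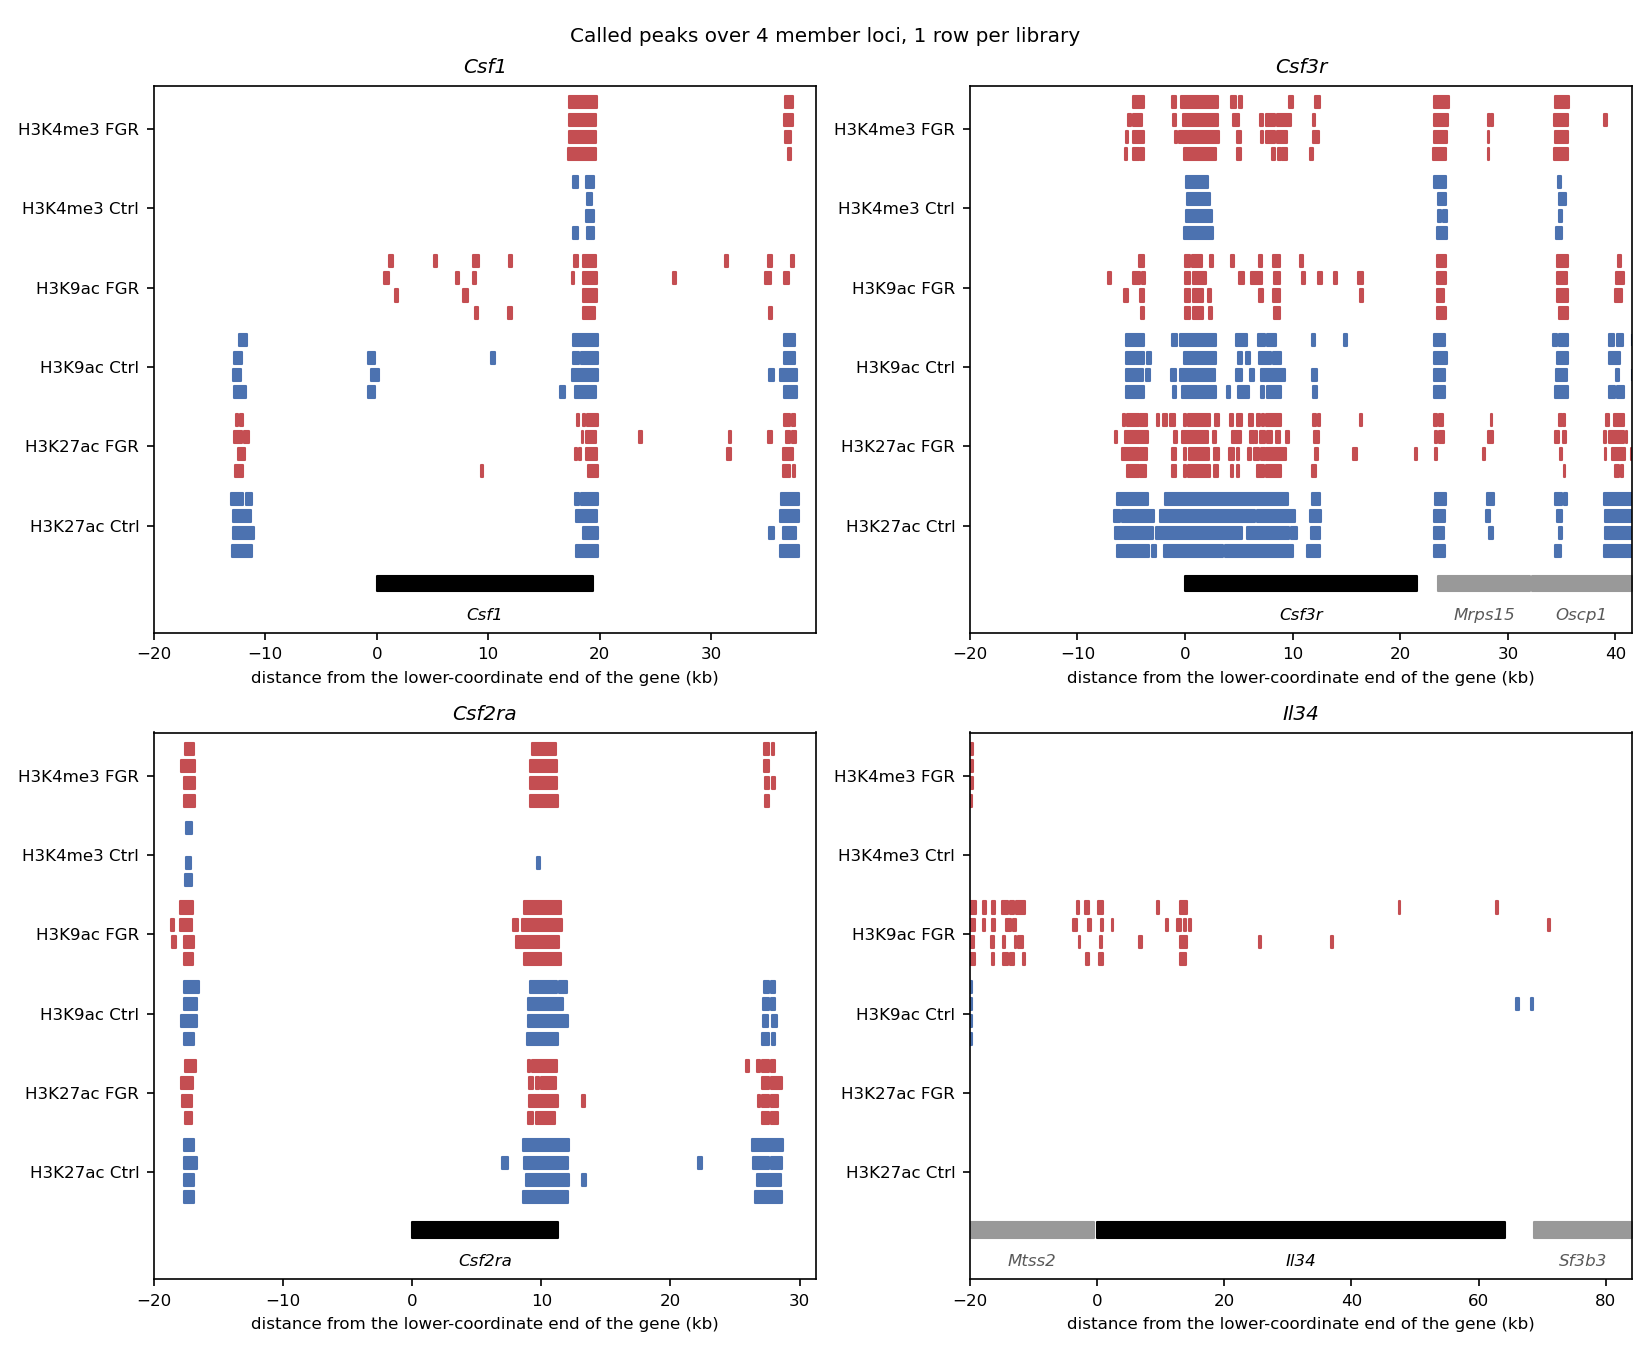
Called peaks over Csf1, Csf3r, Csf2ra and Il34 with 20 kb on either side, as bars at their distance in kb from the lower-coordinate end of the gene, 1 row per library in FGR (red) and Ctrl (blue); black and grey boxes are the member and its protein-coding neighbours. Il34 has H3K9ac peaks in FGR rows from 12.6 to 14.1 kb and none there in Ctrl rows.

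Csf2ra (gene ID 12982, chromosome 19, 61217191 to 61228461, minus strand) had the lowest H3K4me3 p among the members at the gene ends. H3K4me3 at its ends covered 1.86, 2.14, 2.12 and 2.10 kb in FGR, against 0, 0, 0.279 and 0 kb in Ctrl. Of the Ctrl libraries 3 had no peak there, and the difference was 1.99 ± 0.0981 kb (SE; adjusted p = 7.26e-07). It was the only member still called higher after quantile normalization, by 1.09 kb at the gene ends (adjusted p = 0.000264) and by 1.23 kb at the locus (0.00488). H3K9ac at the same end was alike in size in both groups, with 2.75, 2.86, 2.64 and 2.75 kb in FGR and 2.65, 2.70, 3.06 and 2.33 kb in Ctrl. That difference was 0.06 kb with a 95% interval from -0.28 to 0.41 kb (adjusted p = 0.722), and it changed sign without Ctrl library 4, to -0.05 kb (0.745). H3K27ac covered 2.05, 1.65, 2.42 and 1.79 kb in FGR and 3.38, 3.31, 3.595 and 3.29 kb in Ctrl. The groups were separate (difference -1.42 ± 0.167 kb, adjusted p = 5.51e-05), but -0.12 kb remained after quantile normalization (0.673).

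All of this coverage lay at the start of Csf2ra, and its promoter is shown because the marks divide on it. H3K27ac peaks covered 0 to 79 of its 300 bases in FGR and all 300 in each Ctrl library, while H3K4me3 covered 0 to 79 bases in FGR and none in Ctrl, so the H3K4me3 peaks lay beside this window, within the gene. H3K9ac covered 229 to 300 bases in FGR and 84 to 300 in Ctrl. The sequence is that of RefSeq on GRCm38.p6, chr19:61228369-61228668, minus strand, with capitals at the matches named after it.
Csf2ra: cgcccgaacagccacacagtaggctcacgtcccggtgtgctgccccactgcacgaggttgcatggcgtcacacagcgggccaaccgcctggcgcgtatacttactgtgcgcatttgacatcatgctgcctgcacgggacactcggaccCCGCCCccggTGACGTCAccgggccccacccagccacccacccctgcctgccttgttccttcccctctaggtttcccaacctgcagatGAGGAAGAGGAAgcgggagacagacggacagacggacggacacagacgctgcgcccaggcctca
Searched on both strands, it holds 2 adjoining PU.1 core matches (GAGGAA), 1 cyclic AMP response element (TGACGTCA) and 1 GC box (GGGCGG, here on the opposite strand). PU.1 is the macrophage transcription factor that binds this core. Of 32851 RefSeq promoter windows of the same length, 28.3% hold GAGGAA, 1.79% hold TGACGTCA and 35.7% hold GGGCGG, and a match is a description of the letters, not a binding site.

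The strongest H3K4me3 peak of the Csf2ra locus was not at the gene. Its summit lay beyond the far end, between -17455 and -17437 bp from the lower-coordinate end, in the FGR H3K4me3 lists, with 50.8 to 62.9 as the authors' fold over background, and stood within the top 0.00204 to 0.0068% of those lists. Where Ctrl H3K4me3 lists had a peak there, in 3 of 4 libraries, its fold was 2.85 to 3.38 and its place the top 39.5 to 62.6%. The same spot led the locus in the FGR H3K27ac lists, within the top 0.00561 to 0.0152%, whereas in Ctrl H3K27ac lists the strongest peak lay inside the gene, between -904 and -873 bp from its upper end. For H3K9ac the strongest peak lay at that place in 3 of 4 FGR and 2 of 4 Ctrl lists, between -880 and -808 bp, and at the distant spot in the others. The distant spot thus led lists of H3K4me3, H3K27ac and H3K9ac, and it lies within the 20 kb flank, so it adds to the locus values. Input libraries were not analysed, and whether this peak comes from the marks or from the mapping of reads was not tested. Further H3K9ac regions that begin 15841 and 16519 bp before the start of Csf2ra had peaks in each Ctrl library and in no FGR library, and an H3K4me3 region that begins 15999 bp before the start had peaks in each FGR library and no Ctrl library.

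Csf2rb (gene ID 12983) and Csf2rb2 (gene ID 12984) lie 20.1 kb apart on chromosome 15, at 78325800 to 78351001 and 78282507 to 78305721. Their flanks share regions, and as near-identical copies they can share reads, so their values are uncertain and not independent. H3K4me3 at the ends of Csf2rb covered 1.74, 2.22, 2.02 and 1.97 kb in FGR and 0.773, 1.05, 0.779 and 1.06 kb in Ctrl (difference 1.07 ± 0.121 kb, adjusted p = 3.90e-05). Csf2rb2 had 1.42, 1.75, 1.96 and 1.71 kb in FGR and 0.525, 0.655, 0.478 and 0.546 kb in Ctrl (difference 1.16 ± 0.114 kb, adjusted p = 1.82e-05). Neither gene's groups overlapped. After quantile normalization the differences were -0.00197 kb (adjusted p = 0.992) at Csf2rb and 0.21 kb (0.121) at Csf2rb2.

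H3K27ac at the ends of Csf2rb covered 1.95, 1.57, 1.82 and 1.54 kb in FGR and 2.11, 2.86, 2.41 and 2.598 kb in Ctrl, a difference of -0.77 ± 0.170 kb (adjusted p = 0.00215). Csf2rb2 had 2.34, 1.74, 1.92 and 1.48 kb in FGR and 2.88, 2.38, 2.78 and 2.53 kb in Ctrl, a difference of -0.77 ± 0.189 kb (adjusted p = 0.00385). Both turned to higher after quantile normalization, by 0.31 kb (0.183) and 0.38 kb (0.166). H3K9ac was lower at the ends of both, with 1.301, 1.36, 1.395 and 1.15 kb in FGR and 1.94, 2.47, 1.89 and 1.61 kb in Ctrl at Csf2rb (adjusted p = 0.00858). With 5 kb windows that difference turned to 0.0578 kb (0.894), and at the far end alone H3K9ac covered 0.517 to 0.574 kb in FGR and 0 kb in Ctrl. At Csf2rb2 it covered 0.693, 1.07, 1.28 and 0.999 kb in FGR and 1.88, 1.85, 1.83 and 2.04 kb in Ctrl (adjusted p = 0.000577). Within the body of Csf2rb the order was the other way, with 1.34 to 2.42 kb of H3K9ac in FGR and 0.265 to 0.574 kb in Ctrl. A region 22338 to 23275 bp from its lower-coordinate end had peaks in all 4 FGR libraries and in no Ctrl library. Over the whole loci neither gene was called for H3K9ac, with differences of 0.76 kb (95% interval -0.13 to 1.66 kb) at Csf2rb and -0.48 kb (-1.08 to 0.12 kb) at Csf2rb2. Csf2rb2 was called lower with equal list lengths (adjusted p = 0.002) and with the stricter peak threshold (0.0262).

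Csf3r (gene ID 12986, chromosome 4, 126023441 to 126044975, plus strand) had, like Csf1r, H3K4me3 inside the gene mainly in FGR and broad H3K27ac in Ctrl. Mrps15, a mitochondrial ribosomal protein gene, starts 1953 bp beyond its far end, and the H3K4me3, H3K9ac and H3K27ac peaks at that end lie at the start of Mrps15. H3K4me3 over the Csf3r locus covered 8.92, 11.1, 10.4 and 8.19 kb in FGR, against 3.47, 3.51, 3.33 and 4.02 kb in Ctrl (difference 6.06 ± 0.588 kb, adjusted p = 1.36e-05). The start held 2.62 to 3.19 kb in FGR and 2.06 to 2.56 kb in Ctrl. Within the body FGR had 1.87 to 3.68 kb, and of the Ctrl libraries 3 had none and 1 had 0.057 kb. After quantile normalization the locus difference was -0.53 kb (0.367) and the gene-end difference -1.297 kb (0.000755), against 1.003 kb before it (8.99e-05).

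H3K27ac over the Csf3r locus covered 11.5, 12.2, 11.4 and 7.92 kb in FGR and 20.3, 21.3, 21.0 and 20.7 kb in Ctrl, without overlap. The difference was -10.1 ± 0.864 kb (SE; adjusted p = 1.88e-05), and -1.54 kb (0.135) after quantile normalization. H3K9ac over the locus covered 5.88, 9.12, 5.97 and 4.29 kb in FGR and 12.03, 10.9, 11.5 and 11.8 kb in Ctrl (difference -5.25 ± 0.932 kb, adjusted p = 0.00225). At the gene ends it covered 2.30, 2.36, 2.33 and 2.28 kb in FGR and 4.30, 3.48, 4.22 and 3.96 kb in Ctrl (difference -1.67 ± 0.172 kb, adjusted p = 8.15e-05), and both calls held after quantile normalization. The Csf3r promoter is shown as the counterpart to those of Csf1 and Csf2ra, since peaks of H3K4me3, H3K9ac and H3K27ac covered all 300 of its bases in every library of both groups. It is RefSeq sequence on GRCm38.p6, chr4:126024409-126024708, plus strand, a window that lies inside the annotated span of the gene, with its 1 match to GAGGAA in capitals and no match to TGACGTCA, GGGCGG or the AP-1 letters TGAGTCA. The noncoding RNA gene Gm32908, on the minus strand, starts within it, at 126024654, so peaks there are shared by both genes.
Csf3r: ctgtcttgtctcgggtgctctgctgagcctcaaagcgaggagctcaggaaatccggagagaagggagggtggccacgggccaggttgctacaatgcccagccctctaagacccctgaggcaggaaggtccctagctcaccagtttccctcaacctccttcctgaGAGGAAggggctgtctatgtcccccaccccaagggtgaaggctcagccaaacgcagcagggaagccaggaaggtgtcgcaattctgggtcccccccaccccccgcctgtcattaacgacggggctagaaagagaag

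Per length of locus, H3K27ac in Ctrl was densest at Csf1r with 49.7% covered, followed by Csf3r with 33.8% and Csf2ra with 12.97%. Csf2rb, Csf1 and Csf2rb2 came next with 8.90%, 8.68% and 8.21%, and the ranges of these 3 over libraries overlapped. In FGR the order began the same way, with 21.4% at Csf1r (19.3 to 23.7% over libraries), 17.5% at Csf3r (12.9 to 19.9%) and 7.78% at Csf2ra (6.51 to 8.59%). Csf1r and Csf3r overlapped there, as they did not in Ctrl, and the ranges of Csf1, Csf2rb2 and Csf2rb overlapped each other and, for Csf2rb2, that of Csf2ra. As a ratio of means, FGR over Ctrl H3K27ac was 0.429 at Csf1r and 0.507 to 0.601 at the other 5 loci with peaks, beside a median of 0.555 over all genes. For H3K4me3 the ratio was 3.47 at Csf1r and 2.45 to 7.65 at the other 5 with peaks in both groups, beside a median of 2.79.

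**Figure D5:**
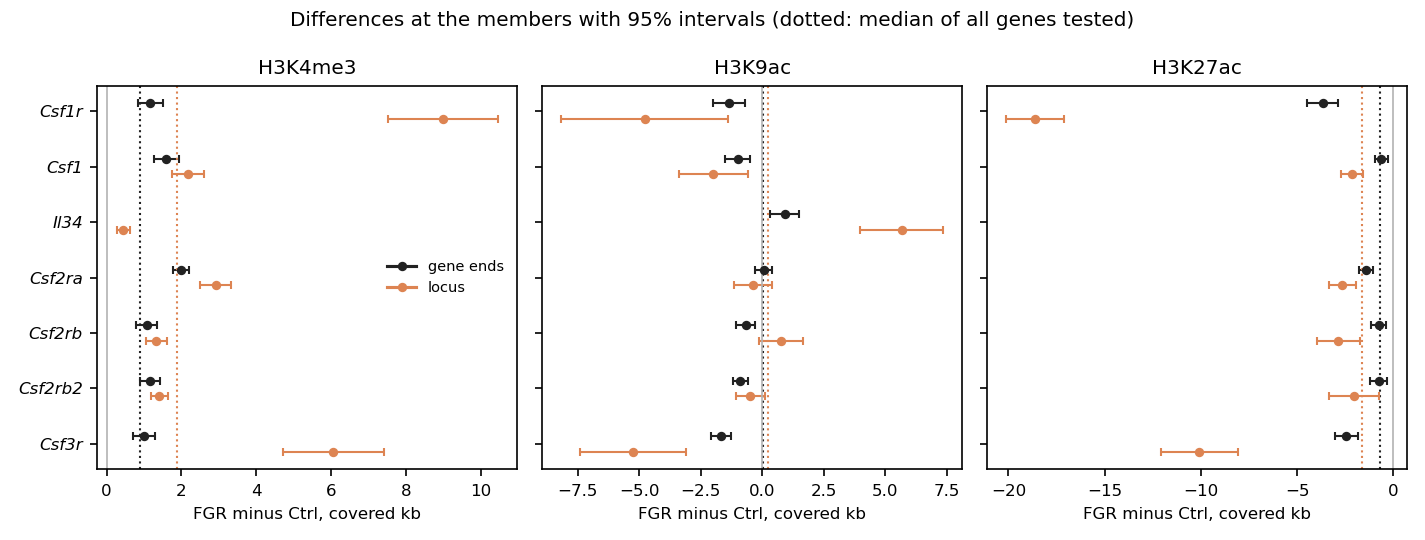
FGR minus Ctrl in covered kb for each member with peaks in enough libraries, with 95% intervals from limma, at the gene ends (black) and loci (orange) for 3 marks; dotted lines are the medians of all genes tested. Csf1r and Csf3r stand furthest from 0 at the loci, at 8.996 and 6.06 kb for H3K4me3 and -18.6 and -10.1 kb for H3K27ac; their H3K4me3 gene-end differences turn negative after quantile normalization.

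H3K9me3 broad peaks, available for replicates 1 to 3, were nearly absent from these genes in FGR. At the gene ends only Csf2ra could be tested, and it was lower, with 0 kb in each FGR library and 0.527, 0.527 and 1.005 kb in Ctrl (adjusted p = 0.0335), beside 34.9% of all genes called lower and 0.0873% higher. That call was lost without any 1 of the FGR libraries (adjusted p = 0.13 to 0.133). Over the loci 3 of 7 members were lower, beside 78.8% of all genes lower and 0.0447% higher. Il34 had 0, 0.361 and 0.692 kb in FGR and 5.87, 5.30 and 5.18 kb in Ctrl (adjusted p = 0.000553), mostly within the gene body. Csf2ra had 0 kb in FGR and 6.45, 5.77 and 3.27 kb in Ctrl (adjusted p = 0.00494). Csf1r had 0 kb in FGR and 1.18, 1.28 and 1.32 kb in Ctrl (adjusted p = 0.00976), a call lost without any 1 of the FGR libraries (0.0575 to 0.0589), and none of it lay within the gene or within 2.5 kb of its ends. The Ctrl lists reached down to a −log10 p of 1.0007 and the FGR lists to 3.42, so the groups were cut at different thresholds, and with a common threshold or common list length no member was called. After quantile normalization the Csf2ra locus was lower, with a difference of -1.06 kb (0.0226), and the Il34 difference was 2.68 kb (0.291). Csf1r turned to 0.819 kb (0.041) and Csf3r to 1.32 kb (0.00895), though both loci had 0 kb in every FGR library. Those turns come from the value that the normalization gives to 0 in the shorter FGR lists, and are no gain of H3K9me3. The narrow lists of replicate 4 held no peak at any member locus in either group.

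Merged over libraries, the 7 loci held 41 H3K4me3 regions, of which 11 were called in each FGR library and no Ctrl library and 0 the other way. That is 26.8% of the regions, beside 25.4% over the genome. For H3K9ac 6 of 103 regions were FGR-only (5.83%, beside 6.29%) and 3 were Ctrl-only (2.91%, beside 3.35%). For H3K27ac none of 55 regions belonged to 1 group alone, where 0.157% of regions over the genome were FGR-only and 1.23% Ctrl-only, and 17 were called in all 8 libraries (30.9%, beside 30%). Of the FGR-only H3K4me3 regions 4 lay at Csf1r, 4 at Csf3r and 1 each at Csf1, Csf2ra and Il34, the last at the start of Mtss2. With lists of equal length 1 FGR-only H3K4me3 region was left (7.69% of 13, beside 4.45% over the genome).

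Genes that act with these receptors were counted in the same way, in values without quantile normalization. Of 28 genes that signal downstream of the receptors (adaptors, kinases, phosphatases and STAT factors), 28 were higher for H3K4me3 and 28 lower for H3K27ac at the gene ends in FGR, and for H3K9ac 8 were higher and 12 lower. Over all genes tested 95.5% were higher for H3K4me3, 81.6% lower for H3K27ac, and 28.5% higher and 30% lower for H3K9ac, and the counts of this list and of the lists that follow are to be read against these shares. Stat3, a transcription factor downstream of Csf3r, had 2.76 ± 0.0642 kb of H3K4me3 in FGR and 0.450 ± 0.280 kb in Ctrl. Pik3cg, a catalytic subunit of phosphoinositide 3-kinase, had 0.559 ± 0.229 kb of H3K9ac in FGR and 3.598 ± 0.153 kb in Ctrl, and Mapk3, a MAP kinase, had 2.91 ± 0.282 kb in FGR and 1.17 ± 0.124 kb in Ctrl. Jak2, the kinase bound to the shared chain Csf2rb, had 1.72 ± 0.1296 kb of H3K27ac in FGR and 3.37 ± 0.200 kb in Ctrl. Among 12 transcription factors that bind Csf1r regulatory DNA, 12 were higher for H3K4me3, 11 were lower for H3K27ac, and 4 were higher and 5 lower for H3K9ac, beside the same shares of all genes. Cebpb was higher for both H3K4me3, with 3.87 ± 0.141 kb in FGR and 1.43 ± 0.288 kb in Ctrl, and H3K9ac, with 5.13 ± 0.609 kb in FGR and 3.72 ± 0.332 kb in Ctrl. Its H3K27ac was lower, with 1.67 ± 0.373 kb in FGR and 4.05 ± 0.174 kb in Ctrl. Tfec, a factor of the MITF family in macrophages, had no H3K9ac peak in FGR and 1.46 ± 0.0628 kb in Ctrl (SD, n = 4 each, for all values here).

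Of 10 further cytokines and receptors of the family, 4 could be tested for H3K4me3 and all 4 were higher, where 95.5% of all genes were. Il3ra, which pairs with the shared chain to bind interleukin 3, had 1.43 ± 0.0217 kb in FGR and 0.0933 ± 0.186 kb in Ctrl. For H3K27ac Il3ra was the only member of the 2 tested that was called, with 0.834 ± 0.340 kb in FGR and 1.86 ± 0.623 kb in Ctrl. For H3K9ac 3 of 7 were higher and 1 was lower, beside 28.5% and 30% of all genes. Csf3, the ligand of Csf3r, had 1.12 ± 0.395 kb in FGR and none in Ctrl, whereas Il5ra, the interleukin 5 receptor chain, had none in FGR and 0.393 ± 0.0747 kb in Ctrl.

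Other cell types' markers can be read beside these values. Border-associated macrophage and monocyte genes, which share the receptors, had 2.82 to 3.06 kb of H3K4me3 in FGR and 0 to 0.291 kb in Ctrl summed over 8 genes, and 0 to 1.001 kb of H3K9ac in FGR and 2.40 to 2.69 kb in Ctrl. Mrc1, their mannose receptor, had 2.17 ± 0.0278 kb of H3K4me3 in FGR and 0.0727 ± 0.145 kb in Ctrl, and 5 of the 8 genes (Cd163, Lyve1, Ccr2, Ly6c2 and Cd209a) had no H3K4me3 peak at their ends in any library. The lymphocyte and neutrophil list, which includes cells that carry Csf3r, had 1.54 to 1.98 kb of H3K27ac in FGR and 3.48 to 4.06 kb in Ctrl over 10 genes. The homeostatic microglia list had 66.7 to 77.7 kb of H3K27ac in FGR and 112 to 115 kb in Ctrl, and 15 of 15 genes lower, where 81.6% of all genes were lower. Its H3K9ac at the gene ends was 48.6 to 54.2 kb in FGR and 76.3 to 79.6 kb in Ctrl. Of the 15 genes 11 were lower and 2 higher for H3K9ac, where 30% of all genes were lower and 28.5% higher. The part of cell composition in the members' results was not tested.

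Over the 24 libraries of H3K4me3, H3K9ac and H3K27ac, gene-end coverage of Csf1r was most like that of Ckap2l (r = 0.978), Zfp446 (0.971) and Abhd12 (0.966). For Csf2ra these were Lrrc8d (0.978), Ptms (0.970) and Mpdu1 (0.962), and for Csf2rb2 Lpxn (0.965), Tnfrsf17 (0.958) and Tlr2 (0.957). Csf3r was nearest to F11r (0.963), Ctss (0.960) and Cox20 (0.955), and Csf1 to Dzip3 and Cip2a (both 0.923), which adjoin each other, and Glce (0.920). These r are descriptions over libraries that share mark and group, and Il34, with a peak at its ends in 5 of the 24 libraries, was left out.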

How the data were processed

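ULI-NChIP-seq peak lists of H3K4me3, H3K9ac, H3K27ac and H3K9me3 from hippocampal microglia were used, 32 lists in all, 1 per library, grouped by their labels. The submitters' processing notes name DiffBind 3.12.0, MACS2 2.2.7.1, Bowtie2 2.4.5, Trim Galore 0.6.5, SAMtools 1.3.1 and the mm10 build, without their roles. Options and control of the peak caller: not given in the sources used here. Input libraries, 1 per group, were not analysed. The authors gave each peak a score in whole numbers. Its fold enrichment, a ratio, was also computed by the authors. Each deposited list further holds the −log10 of a p-value and of a q-value per peak. These describe or rank peaks within 1 list.

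Lists are narrow peaks except H3K9me3 replicates 1 to 3, which are broad and were tested 3 against 3; replicate 4 of that mark was described apart. No counts came with the lists, so depth is unknown, and the local background was worked out per narrow peak from fold and −log10 p together. Peaks of a list were merged and their length summed per window for 21631 protein-coding genes of a RefSeq table on GRCm38.p6, the assembly of mm10. That table holds no strand; the promoter table gives it for 4 members.

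Covered kb was compared with limma 3.58.1 (lmFit and eBayes, R 4.3.3) per mark and window, FGR minus Ctrl, over genes with a peak in at least 2 libraries, adjusted by Benjamini-Hochberg across every gene in the fit, two-sided, threshold 0.05; all adjusted p-values are from this test. It was tested on simulated gene-end values. Changes of 2 kb were recovered at 96 to 100% of changed genes for H3K4me3, H3K9ac and H3K27ac and at 50 to 62% for H3K9me3. Changes of 1 kb were recovered at 86 to 88% for H3K4me3, 54 to 68% for H3K9ac, 72 to 80% for H3K27ac and 14 to 18% for H3K9me3. Changes of this size can thus be missed, above all for H3K9me3. No more than 0.103% of unchanged genes were called. Python 3.11.15 with numpy 2.4.6 and pandas 2.3.3 did the rest. Regions are peaks merged over the libraries of a mark, and a library has a region with 1 bp of overlap. Alternatives were quantile normalization, equal list length, a stricter peak threshold (−log10 q of 3, for broad lists 1.3), other windows (5 kb of gene ends, 5 kb flanks), no filter, the replicate number as a block, leaving out each library and, chosen after seeing the data, leaving out replicate 4 of both groups.

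All members were named. Of each other list up to 2 genes called higher and 2 called lower with the smallest p per mark were eligible as examples, and up to 3 genes most like a member; those most like Csf2rb are not reported here. The members and lists were chosen with earlier results of these data known. No more than 0.545% of peaks had identical bounds in another replicate of the group, so no list was a copy of another. That share cannot tell separate animals from parts of a pool. Replicates were counted as separate samples, as labelled.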

Additional observations from a re-analysis of the deposited data

Results flagged for a closer look

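Of 77 groups of 4 libraries tested, 6 had a library set apart from its nearest neighbour. The gap as a share of the group's range exceeded Dixon's 95% critical value for 4 libraries. Chance exceeds that value in about 1 group of 20, but only where values are not tied. Where the other libraries are tied, any differing library is flagged. This was so at the ends of Csf2ra in Ctrl (H3K4me3), the ends of Il34 in Ctrl (H3K9ac) and the Il34 locus in FGR (H3K4me3). Gene-end and locus groups also share peaks. Csf2ra stood out for H3K4me3 at the gene ends in both groups, with 1.86 kb in FGR library 1 where the others had 2.10 to 2.14 kb, and with 0.279 kb in Ctrl library 3 where the others had 0. Csf1r had 4.275 kb of H3K4me3 over the locus in Ctrl library 4, and 3.401 to 3.445 kb in the other Ctrl libraries. For H3K4me3 over the Il34 locus, FGR library 4 had 0.388 kb and the other FGR libraries 0.468 kb each, all at the start of Mtss2. H3K9ac at Il34 was highest in Ctrl library 2 in both windows, with 0.41 kb at the gene ends where the other Ctrl libraries had 0, and 1.04 kb over the locus where they had 0.293 to 0.376 kb.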

How the results depend on the processing

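Quantile normalization left 3 H3K4me3 members called at the gene ends (1 higher, 2 lower) and 5618 genes (2220 higher, 3398 lower), and 1 member and 7176 genes (2992 higher, 4184 lower) at the loci; for H3K27ac 0 members and 2832 genes (1488 higher, 1344 lower) at the gene ends, and 1 member and 3562 genes (1857 higher, 1705 lower) at the loci; for H3K9me3 0 members and 1167 genes at the gene ends, and 8213 genes at the loci. Member differences that turned under it for H3K4me3 were Csf3r -1.297, Csf2rb -0.00197 and Csf1r -0.81 kb at the gene ends and Csf3r -0.53, Il34 -0.16 and Csf2rb -0.33 kb at the loci. For H3K27ac they were Csf1 0.18, Csf2rb2 0.38 and Csf2rb 0.31 kb at the gene ends and Csf1 0.24, Csf2rb2 0.29 and Csf2ra 0.46 kb at the loci. For H3K9me3 at the loci they were Csf1 0.50, Csf3r 1.32, Il34 2.68, Csf2rb2 0.0247, Csf2rb 0.77 and Csf1r 0.82 kb. The Il34 locus had 0 kb of H3K4me3 in every Ctrl library. Every FGR broad list had 0 kb of H3K9me3 at the loci of Csf1, Csf3r, Csf2rb2, Csf2rb and Csf1r. In those cases the turn comes from the value that the normalization gives to 0, and is no loss or gain of peaks.

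The H3K9ac members called at the loci numbered 2 with 5 kb flanks and without replicate 4 of both groups, and 2 to 4 when each library was left out. Their differences turned at Csf2rb (0.0578 kb, 5 kb of the gene ends), and at Csf2ra without Ctrl library 4 (-0.0534 kb, the lowest with 1 library left out; the highest, without Ctrl library 3, was 0.189 kb), without replicate 4 (-0.0543 kb) and with 5 kb flanks (0.47 kb). With lists of equal length H3K9ac called 3251 genes higher and 5443 lower at the gene ends (4446 and 4682 otherwise) and 4297 higher and 6709 lower at the loci (6146 and 4975 otherwise).

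For H3K9me3 at the gene ends, 0 members were called with equal list lengths (74 genes), the stricter threshold (140 genes), no filter (1888 genes) or the replicate block, 7434 genes were called within 5 kb of the ends, and leaving out a library gave 0 to 1 members and 1526 to 6414 genes, the lowest without FGR library 2 and the highest without Ctrl library 3. At the loci 0 members were called with equal list lengths (324 genes) and the stricter threshold (1974 genes, Il34 turning to 0.35 kb), and 2 to 5 members with a library left out, 5 without Ctrl library 1 or 3. With equal list lengths 1 H3K4me3 region was FGR-only (7.69%, beside 4.45% over the genome), and 2 H3K9ac regions were (3.17%, beside 4.26%). H3K9ac Ctrl-only regions numbered 9 when 50% of a region had to be covered (8.74%, beside 5.02%). H3K27ac Ctrl-only regions numbered 1 with equal list lengths (2.7%, beside 4.35%) and 5 with 50% covered (9.09%, beside 10.5%). The cause was not tested.

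Replicate numbers did not pair the libraries (correlations of same-numbered deviations from -0.021 to 0.034). With the replicate block 13203 genes were called for H3K4me3, 8737 for H3K9ac and 9428 for H3K27ac at the gene ends, and the same 6 members of each mark; at the loci Csf1 (adjusted p = 0.0725) was no longer called for H3K9ac, Csf2rb (0.0361) was, and Csf1r (0.0828) was no longer called for H3K9me3. Unknown depth, different thresholds and peak widths that follow the group limit every covered length.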
